A study of Rattus norvegicus with 4 samples.

Results

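Dapl1, Pdcd4, Hs3st6 and Nkain3 are 4 rat genes whose counts in footpad skin were far lower on day 9, after a course of fractionated irradiation, than on day 0, before it. They were taken by gene symbol from the deposited gene tables, which join to 18957 genes or transcript entries, and all 4 were listed in each library. They had been selected on their ratio of day 9 to day 0, so that contrast is given as a description only. Among 248 genes with an established symbol and 100 or more counts in 1 of the libraries that were lower on day 9, they ranked 5 (Dapl1), 6 (Hs3st6), 9 (Nkain3) and 10 (Pdcd4) from the lowest ratio. Pdcd4, the last of the 10 lowest, was 6.78-fold lower on day 9 than on day 0, and Ckmt1b, the next gene outside them, was 6.24-fold lower.

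The skin came from the hindlimb footpad of Sprague Dawley rats, an outbred and albino laboratory stock, and was collected on days 0, 3, 6 and 9. By the protocol in the labels a dose of 10 Gy was given on each of days 1, 2, 4 and 5, with 9 MeV electrons at 500 cGy/min, so that 0, 2, 4 and 4 irradiations preceded the collections. The description of the day 0 sample gives day 1 for its collection, and the descriptions of the other samples name 1 irradiation day each. The collection days used here are those of the sample titles. Sex, age, time of day and whether tissue of several animals was pooled are not given in the labels. Each day has 1 library, so no spread between animals can be measured. Every interval below is an exact 95% interval for counting error alone. The tags were not marked with molecular identifiers.

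The libraries held 1952921 to 1982608 gene counts. Several measures set single libraries apart. Eif2s3y, a gene of the Y chromosome, had 0, 118, 92 and 130 counts on days 0, 3, 6 and 9, and the summed level of 9 skeletal muscle markers was 2295, 5043, 0 and 4595 scaled CPM, a level relative to the total of gene counts and not to transcript length. Sweat gland and simple epithelium markers summed to 235, 414, 62.2 and 273 scaled CPM, lowest on day 6 as muscle was. Dermal fibroblast markers summed to 11143, 52189, 40046 and 37403 scaled CPM, lowest on day 0, and Hbb, a globin of red blood cells, had 35, 1510, 104 and 579 counts. Actb, a cytoskeletal actin, had 3848, 1774, 876 and 2316 counts. The part of these differences in the results was not tested. Comparisons with day 0 rest on the library that lacks Eif2s3y counts, and those of day 9 with days 3 and 6 are given without it.

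The 4 proteins have different roles. Pdcd4 binds the RNA helicase eIF4A and holds back the start of translation, and it is degraded after phosphorylation by S6 kinase in growth-stimulated cells. Dapl1 is a small protein related to the death-associated protein Dap and was described in mouse as a protein of early epithelial differentiation. Hs3st6 is an enzyme that adds a sulfate group to the glucosamine of heparan sulfate, the sugar chain by which cell surface and matrix proteoglycans bind growth factors. Nkain3 belongs to a family of membrane proteins named for their binding to the beta-1 subunit of the sodium pump.

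Each transcript was counted through 21-base tags that begin at a CATG site, so the tags are the primary data. The most abundant tag of each gene is shown because it carried 92.3% or more of that gene's counts in every library. Capitals mark the CATG site.
Dapl1: CATGctccagcagtgaaagct
Pdcd4: CATGtgaacactgaaaaaaaa
Hs3st6: CATGatatgtccccagacacc
Nkain3: CATGcaaactgaaaaaaaaaa
The tag of Dapl1 lies at the second CATG site from the end of its transcript, those of Pdcd4 and Hs3st6 lie at the first, and that of Nkain3 lies at site 3, by the numbering of the files. The tags of Pdcd4 and Nkain3 close in a run of 8 and 10 A, while those of Dapl1 and Hs3st6 close in no run of A. In this assay a CATG site close to the end of a transcript gives a tag that runs into the poly(A) tail. By the numbering of the files the Pdcd4 tag is at the first site from the end, but the Nkain3 tag is not. Where the run of A in the Nkain3 tag comes from was not tested.

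Dapl1 was lower in each later library than in the one before it. Its counts were 2190, 728, 453 and 223 on days 0, 3, 6 and 9, or 1093, 361, 233 and 117 scaled CPM. On day 9 it was 9.34-fold lower than on day 0 (95% interval 8.15 to 10.8). It was 3.02-fold lower on day 3 than on day 0 (2.78 to 3.29) and 4.69-fold lower on day 6 than on day 0 (4.24 to 5.21). Between later days Dapl1 was 1.55-fold lower on day 6 than on day 3 (1.38 to 1.75) and 1.99-fold lower on day 9 than on day 6 (1.69 to 2.35). Over the whole span of days 3 to 9 it was 3.09-fold lower on day 9 than on day 3 (2.66 to 3.61).

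Pdcd4 had 2089, 704, 1126 and 293 counts on days 0, 3, 6 and 9, or 1043, 350, 579 and 153 scaled CPM. It was low on day 3, intermediate on day 6 and lowest on day 9. On day 9 it was 6.78-fold lower than on day 0 (6.01 to 7.70) and 3.76-fold lower than on day 6 (3.31 to 4.30). On day 6 it stood at 1.65 times its day 3 level (1.50 to 1.82), the opposite direction to Dapl1.

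Hs3st6 was counted at lower depth, with 171, 41, 56 and 20 counts on days 0, 3, 6 and 9, or 85.3, 20.4, 28.8 and 10.5 scaled CPM. It was 7.97-fold lower on day 9 than on day 0 (5.11 to 13.7) and 4.15-fold lower on day 3 than on day 0 (2.97 to 6.05). Days 6 and 3 could not be told apart at this depth, with a ratio of 1.41 (0.928 to 2.17). On day 9 it was 2.70-fold lower than on day 6 (1.62 to 4.83).

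The row of Nkain3 had 133, 56, 137 and 18 counts on days 0, 3, 6 and 9, or 66.4, 27.8, 70.4 and 9.43 scaled CPM. The day 6 level was the same as that of day 0 within counting error, at a ratio of 1.06 (0.829 to 1.36), and days 3 and 9 were low. On day 9 it was 6.87-fold lower than on day 0 (4.29 to 12.2) and 7.29-fold lower than on day 6 (4.55 to 13.0).

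**Figure D1:**
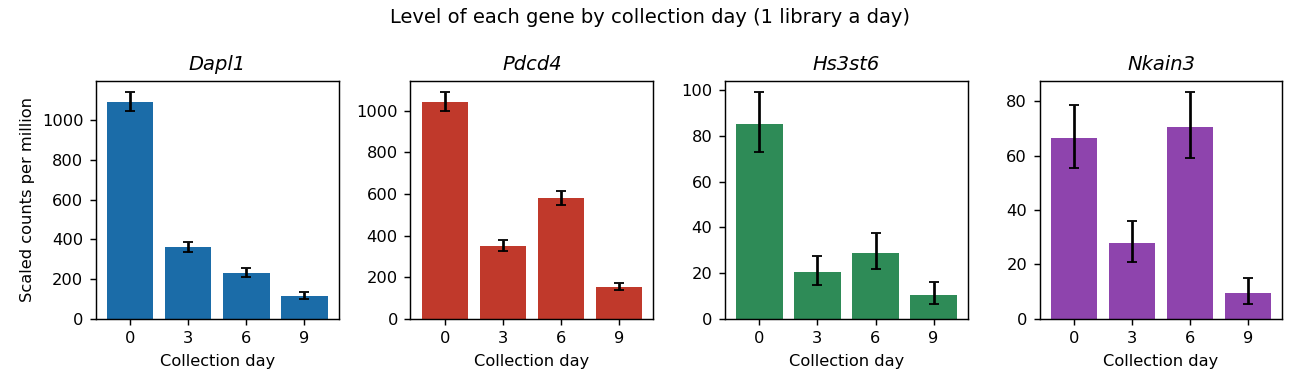
Scaled CPM (vertical axis) of Dapl1, Pdcd4, Hs3st6 and Nkain3 in the libraries of days 0, 3, 6 and 9 (horizontal axis), with 1 library a day and bars of error that give exact 95% Poisson intervals. Dapl1 is lower at each later day, while Pdcd4 and Nkain3 are higher on day 6 than on days 3 and 9.

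A gene was called lower or higher where it differed by 2-fold or more after scaling, had 50 or more counts on 1 of the days compared and had an interval that leaves out 1. Day 6 against day 3 is the 1 comparison that uses neither library by which the genes were chosen. There 0 of the 4 were called lower, where 6.74% of all genes with enough counts were, and 1 of the 4, Nkain3, was called higher, where 2.88% were. Nkain3 stood at 2.52 times its day 3 level on day 6 (1.84 to 3.52). Of the 558 genes lower on day 9 than on day 0, 390 had enough counts in this comparison. Of those 390, 41 (10.5%) were lower on day 6 than on day 3 and 16 (4.10%) were higher.

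The other comparisons share the day 9 or the day 0 library with the choice of the genes. Day 9 against day 0 calls 10.4% of genes lower, and all 4 were by the choice itself. On day 3 against day 0, 4 of 4 were lower (7.88% of all genes), with Nkain3 2.37-fold lower (1.73 to 3.32) and Pdcd4 2.98-fold lower (2.74 to 3.25). On day 6 against day 0, 2 of 4 were lower (13.1% of all genes), namely Dapl1 and Hs3st6, which was 2.95-fold lower (2.18 to 4.09). Pdcd4 was 1.80-fold lower there (1.68 to 1.94) and did not reach the size. On day 9 against day 6, 3 of 4 were lower (4.37% of all genes), and Dapl1 was just short of 2-fold. On day 9 against day 3, 3 of 4 were lower (4.59% of all genes): Dapl1 as given above, Pdcd4 at 2.28-fold (1.98 to 2.62) and Nkain3 at 2.89-fold (1.71 to 5.33). Hs3st6 was 1.92-fold lower in that comparison (1.11 to 3.50).

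**Figure D2:**
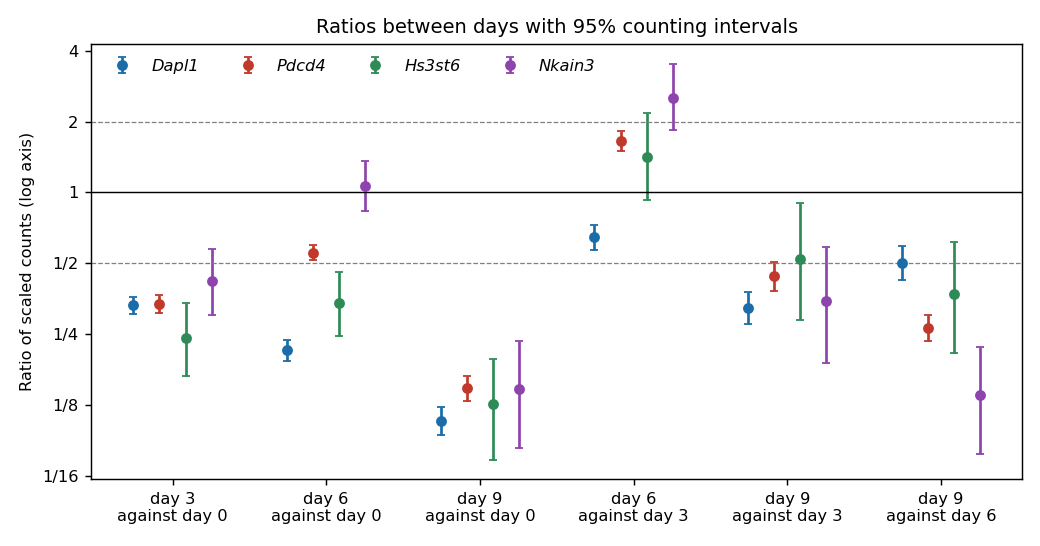
Ratio of scaled counts of the first day named to the second (vertical axis, log scale) for each gene and each pair of days (horizontal axis), with exact 95% counting intervals, a solid line at 1 and dashed lines at 2-fold. All 4 genes lie under the lower dashed line on day 9 against day 0 and on day 3 against day 0, and on day 6 against day 3 Dapl1 lies below 1 and Pdcd4 and Nkain3 above it.

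In bulk skin, fewer cells that express a gene and less RNA per cell cannot be told apart. Markers of several cell types were read beside the 4 genes. Summed melanocyte markers, from 5 of 8 markers found, had 43.4, 13.9, 9.25 and 8.38 scaled CPM on days 0, 3, 6 and 9, an order that matches Dapl1. Pmel, a protein of the pigment granule, had 31, 6, 2 and 0 counts, and Tyrp1, an enzyme of melanin synthesis, had 33, 5, 0 and 0 counts, at least 10.5-fold lower on day 9 than on day 0 against a floor of 3 counts. Sox10, a transcription factor of melanocytes and Schwann cells, had 18, 17, 12 and 10 counts. Mitf, the master regulator of melanocytes, had 3, 0, 4 and 6 counts, and Mlana had 2, 0, 0 and 0 counts. The sum is thus carried by Pmel and Tyrp1 on day 0 and by Sox10 and Mitf on day 9. No melanocyte marker reached 50 counts, and their part in the fall of Dapl1 was not tested.

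Summed basal keratinocyte markers had 1687, 1502, 1817 and 1560 scaled CPM on days 0, 3, 6 and 9. None of their 6 tested members was called on day 9 against day 0. Col17a1, the hemidesmosome collagen, was 1.94-fold lower (1.72 to 2.20) and Tp63, the master regulator of basal keratinocytes, was 1.89-fold lower (1.68 to 2.13). The integrin subunits of the hemidesmosome went the other way, with a ratio of 1.61 for Itga6 (1.31 to 1.97) and of 1.49 for Itgb4 (1.36 to 1.63). Suprabasal and early differentiation markers had 3 of 8 tested members lower and 0 higher, where 10.4% of all genes were lower. Their median log2 ratio was -0.51, where the median over all 9876 genes with a mean of at least 10 counts was 0. Krt2, a keratin of the upper epidermis, had 798, 285, 589 and 195 counts on days 0, 3, 6 and 9 and was 3.89-fold lower on day 9 than on day 0 (3.33 to 4.58). Krt10, the acidic suprabasal keratin, had 13717, 4763, 10006 and 5777 counts. Both were low on day 3, higher on day 6 and low again on day 9, as Pdcd4 was, whereas Krt9, the keratin of palm and sole epidermis and the other member called lower, had 153, 559, 6 and 40 counts, highest on day 3 and lowest on day 6. Krt1, the partner of Krt10, had 21013, 23380, 38510 and 29506 counts. Cornified layer markers had 0 of 7 lower and 1 higher, with a median of 0.44. Stress keratin and alarm markers of injured epidermis had 9 of 9 higher, with a median of 4.76, in a comparison that calls 10.7% of all genes higher. Krt2 and Krt10 thus moved in the same directions as Pdcd4. So did the basal sum, over a narrower range, and Tgm3, a cornified marker with 2129, 979, 1704 and 1334 counts. Summed cornified markers had 3722, 3091, 5112 and 5080 scaled CPM. On day 3 against day 0, 2 of 7 of them were lower and 0 higher, where 7.88% of all genes were lower. On day 9 against day 0 no cornified or stress marker was called lower. The 4 genes were chosen on that comparison, so it cannot set them apart from these markers. The part of these markers in the result of Pdcd4 was not tested.

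Pdcd4 acts on the machinery of translation initiation, and 17 of 20 partners and regulators were found. Of 12 tested, 1 was lower and 1 was higher on day 9 against day 0, with a median log2 ratio of 0.05. In that comparison 10.4% of all genes were lower and 10.7% higher. Mtor, the kinase upstream of S6 kinase, had 26 counts on day 9 against 56 on day 0 and was 2.03-fold lower (1.27 to 3.40). Rps6kb1, an S6 kinase that marks Pdcd4 for degradation, had 36, 59, 47 and 73 counts on days 0, 3, 6 and 9, with a day 9 to day 0 ratio of 2.11 (1.41 to 3.27). Eif4e, the cap-binding factor, had a ratio of 1.95 (1.67 to 2.30) and Eif4ebp1, its inhibitor, of 1.87 (1.52 to 2.32), and neither was called. Pdcd4 is also known to restrain AP-1, the dimeric factor of Fos and Jun proteins. Of 6 tested AP-1 subunits, 1 was lower and 2 were higher on day 9 against day 0, with a median of 0.29. On day 3 against day 0, 2 of 5 were lower and 0 higher (median -1.24), where 7.88% of all genes were lower. On day 6 against day 0, 2 of 5 were lower and 0 higher (median -0.91), where 13.1% of all genes were lower. Fosb and Jund were the members lower on both days. A link between Pdcd4 and these genes was not tested. Atf3, a stress-induced member, had 43, 18, 21 and 145 counts, with a day 9 to day 0 ratio of 3.51 (2.50 to 5.10), and Junb had a ratio of 2.79 (2.20 to 3.59). Fosb had 60, 5, 7 and 17 counts, lowest on day 3, and on day 9 was 3.29-fold lower (1.94 to 6.15).

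Few other genes of heparan sulfate modification had enough counts to set beside Hs3st6. Of 21 listed sulfotransferases, sulfatases and sulfate donors 11 were found and 4 had enough counts. Of these 4, 0 were lower or higher on day 9 against day 0. Over the 7 with a mean of at least 10 counts, the median was -0.17. Hs6st1, a 6-O-sulfotransferase, had 102, 76, 56 and 54 counts on days 0, 3, 6 and 9, a ratio of 0.558 on day 9 against day 0 (0.392 to 0.780). Sulf2, which removes 6-O-sulfate outside the cell, had 96, 210, 237 and 131 counts and was called higher on day 3 against day 0, with a ratio of 2.17, and on day 6 against day 0, with a ratio of 2.53. No other 3-O-sulfotransferase gene of the list was found in the gene tables. Chain synthesis genes had 0 of 3 called and a median of -0.44 over 7 members. Core proteins had 0 of 7 called on day 9 against day 0 and a median of 0.03 over 8 members. On day 3 against day 0, 1 of 8 was lower and 1 higher, where 7.88% of all genes were lower. On day 6 against day 0, 2 of 8 were lower and 1 higher, where 13.1% of all genes were lower. Sdc1, the main syndecan of epidermis, had 1810, 694, 783 and 1060 counts and was 1.63-fold lower on day 9 (1.51 to 1.76). It was called lower against day 0 on day 3, with a ratio of 0.382, and on day 6, with a ratio of 0.446.

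Among sodium pump subunits and their interacting proteins, 13 of 18 were found and 5 were tested. Over the 8 of them with a mean of at least 10 counts, the median log2 ratio on day 9 against day 0 was -0.02. Atp1b1, the beta-1 subunit, had 165, 236, 9 and 167 counts on days 0, 3, 6 and 9, low in the day 6 library, where muscle and simple epithelium markers were also low, and its ratio on day 9 against day 0 was 1.06 (0.852 to 1.33). Nkain4, the other family member found, had 3, 14, 5 and 0 counts, too few to compare. Of autophagy genes and Dap, 0 of 11 tested were called, with a median of 0.15. Dap, the relative of Dapl1, had 227, 248, 249 and 161 counts and was 1.34-fold lower on day 9 (1.09 to 1.65), against 9.34-fold for Dapl1.

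**Figure D3:**
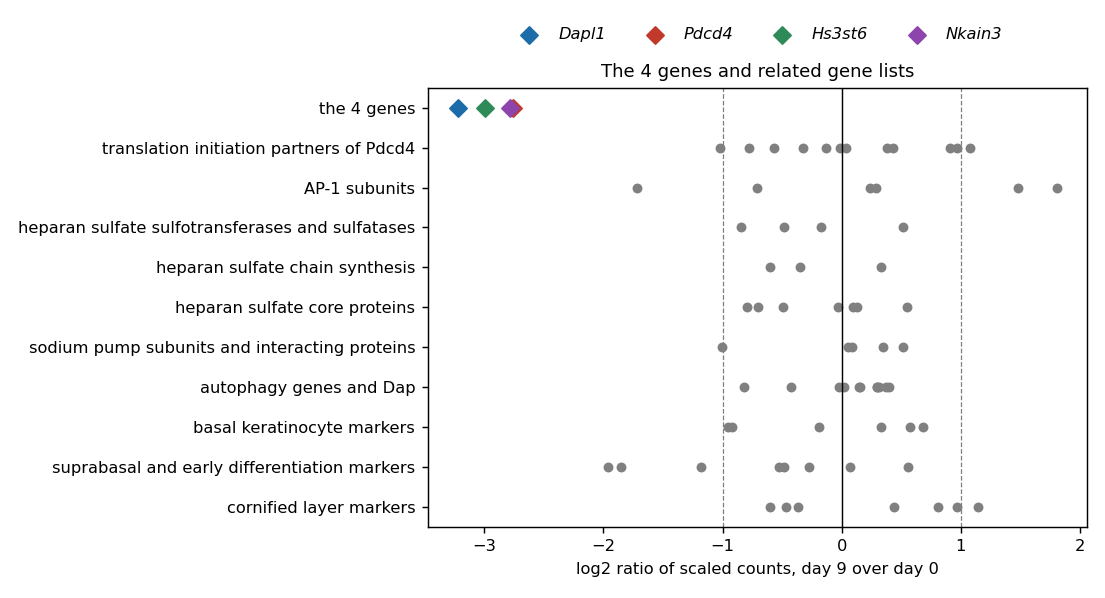
Log2 ratio of scaled counts of day 9 over day 0 (horizontal axis) for Dapl1, Pdcd4, Hs3st6 and Nkain3 (top row) and for each member of 10 related gene lists with 50 or more counts on either day (grey points), with dashed lines at 2-fold. The 4 genes were chosen on this ratio and lie between -3.22 and -2.76, lower than every point of the lists shown.

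Sweat gland and simple epithelium markers had 0 of 3 called on day 9 against day 0 (median 0.20). On day 6 against day 3, 4 of 4 were lower (median -4.24), where 6.74% of all genes were. On day 6 against day 0, 3 of 3 were lower (median -3.17), where 13.1% of all genes were. Day 9 against day 0 calls 10.4% of all genes lower and 10.7% higher. There 0 of 3 Schwann and nerve markers (0.24) and 0 of 2 endothelial markers (0.07) were called. Skeletal muscle markers had 4 of 7 higher and 0 lower (1.18). Dermal fibroblast markers had 5 of 6 higher and 0 lower (1.33), and macrophage and monocyte markers 2 of 5 higher and 0 lower (0.60). On day 3 against day 0, 6 of 6 fibroblast markers were higher, where 456 of 5342 genes with enough counts were.

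Pdcd4 was also counted through minor tags. Those at other sites of the transcript had 40, 23, 13 and 8 copies (site 2) and 17, 2, 4 and 2 copies (site 3) on days 0, 3, 6 and 9. The site 2 tag was 4.54-fold lower on day 9 than on day 0 (2.20 to 11.8). On day 6 against day 3 its ratio was 0.594 (0.272 to 1.20), whereas that of the main tag was 1.70 (1.54 to 1.88). The tags below share their first 13 bases, in capitals, with the main tag and are shown because one ran close to it in course and the other did not. They were looked for after the values of the genes had been seen.
Pdcd4 main tag: CATGTGAACACTGaaaaaaaa
Unassigned, closing in 6 A: CATGTGAACACTGtcaaaaaa
Unassigned, closing in no run of A: CATGTGAACACTGtcacttct
The tag closing in 6 A stood under no gene and had 1440, 575, 1009 and 245 copies on days 0, 3, 6 and 9, close in course to the 1953, 650, 1067 and 277 copies of the main tag. It was 5.59-fold lower on day 9 than on day 0 (4.89 to 6.44). The third tag had 77, 49, 79 and 41 copies and was 1.78-fold lower (1.21 to 2.68), well short of the main tag's 6.71-fold (5.92 to 7.65). Whether the unassigned tags come from Pdcd4 was not tested. With all unassigned tags of this stem added, Pdcd4 was 5.89-fold lower on day 9 than on day 0.

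**Figure D4:**
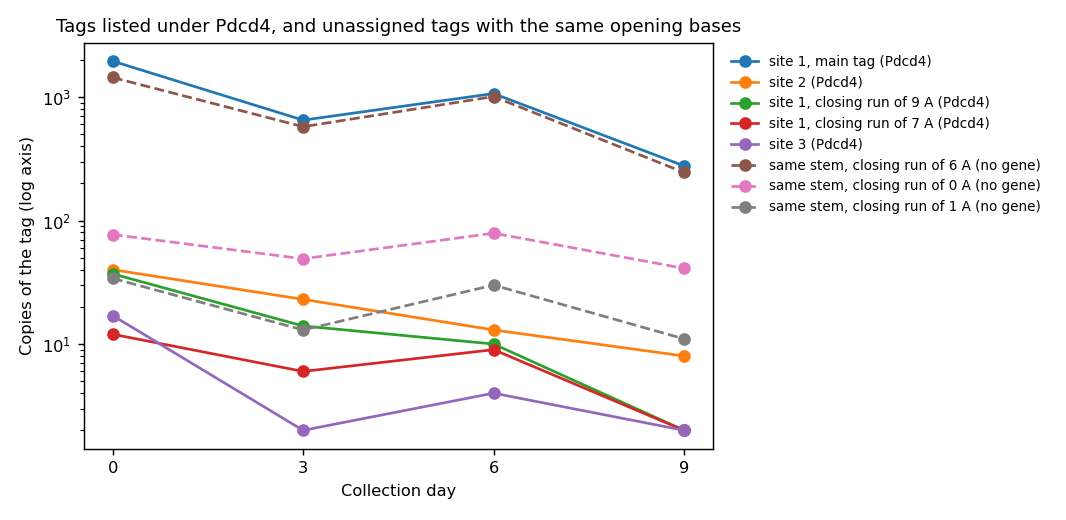
Copies (vertical axis, log scale) of tags listed under Pdcd4 with at least 10 copies in a library (solid lines) and of unassigned tags with the same first 13 bases (dashed lines) by collection day (horizontal axis), 1 library a day. The main tag and the unassigned tag closing in 6 A run nearly in parallel, and the unassigned tag closing in no A changes least.

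All tags listed under Nkain3 lie at 1 site and close in a run of A. Its main tag differs by A11G, counted from the 5′ end of the tag with the abundant tag's base first, from a far more abundant tag that stands under no gene. The pair is shown with the differing base in capitals.
Nkain3 main tag: catgcaaactGaaaaaaaaaa
Abundant tag, no gene: catgcaaactAaaaaaaaaaa
The abundant tag had 137757, 54421, 126175 and 48556 copies on days 0, 3, 6 and 9, or 3.84, 1.62, 3.55 and 1.41% of all sequenced tags. The copies of the Nkain3 tag were 0.0965, 0.0974, 0.105 and 0.0371% of those. Tags with any other single base changed after the CATG site were seen as well. Of 51 possible changes, 51, 51, 51 and 49 were present on days 0, 3, 6 and 9, with medians of 75, 41, 85 and 27 copies. The Nkain3 tag ranked 15, 22, 19 and 31 among them.

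The abundant tag was 2.70-fold lower on day 9 than on day 0 (2.68 to 2.73), which is less than the 6.87-fold of the Nkain3 tag. On day 6 against day 3 the ratio was 2.40 for the abundant tag (2.38 to 2.42) and 2.58 for the Nkain3 tag (1.88 to 3.64). Other variants with at least 50 copies had a ratio below that of the Nkain3 tag in 1 of 29 cases on day 9 against day 0, 0 of 31 on day 9 against day 6 and 1 of 21 on day 9 against day 3. The counts were 5 of 29 on day 3 against day 0, 8 of 31 on day 6 against day 0 and 23 of 31 on day 6 against day 3. The low day 9 value of Nkain3 was part of its selection. How many copies of the Nkain3 tag are misread copies of the abundant tag was not tested, and the values of the Nkain3 row are those of this tag. The main tags of Dapl1, Pdcd4 and Hs3st6 have no such neighbour: the summed copies of all tags 1 base from them were at most 26, 90 and 1 in any library.

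**Figure D5:**
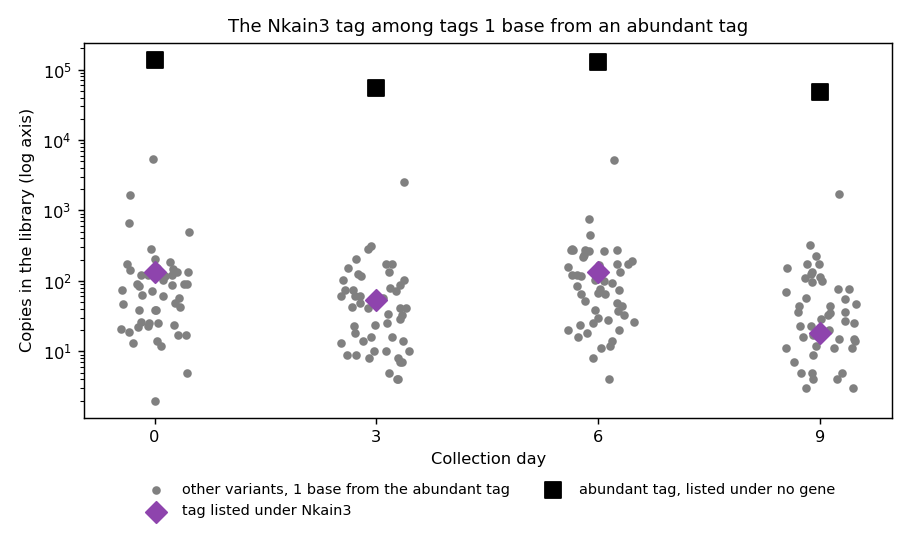
Copies (vertical axis, log scale) by collection day (horizontal axis) of the tag listed under Nkain3 (diamonds), of the abundant unassigned tag 1 base away (squares) and of the other tags 1 base from that abundant tag (grey points, those present), 1 library a day. The Nkain3 tag lies within the range of the other variants in every library.

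Tags that close in a run of 8 or more A, other than those of the 4 genes, were fewer on days 3 and 9. All tags closing so, those of the 4 genes included, made up 2.27, 1.58, 1.97 and 1.04% of gene counts on days 0, 3, 6 and 9. Of 78 such tags with at least 50 copies, 32 were lower and 3 were higher on day 9 against day 0, with a median log2 ratio of -0.80. Of 5475 other tags 600 were lower and 697 higher, with a median of 0.00. On day 6 against day 3, 2 of 80 closing in A were lower and 10 were higher (median 0.39), while 439 of 5144 other tags were lower and 182 higher (median 0.06). These tags moved with Pdcd4 and Nkain3, and their part in those results was not tested. The tags of Dapl1 and Hs3st6 close in no run of A, and neither does the site 2 tag of Pdcd4.

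The 4 libraries allow a list of the genes nearest to each gene in course, by the Euclidean distance between log2 levels centred on their mean over 4 libraries, among 3857 genes with a mean of at least 50 counts. Nearest to Dapl1 were Tfap2b (0.424), Mgst3 (0.660), Dhcr7 (0.709), Gpt (0.786) and Hs3st6 (0.815). Tfap2b, a transcription factor of the AP-2 family, had 463, 157, 138 and 56 counts on days 0, 3, 6 and 9. Nearest to Hs3st6 were Tfap2b (0.474), Dhcr7 (0.509), Slc6a9 (0.510), Pdcd4 (0.532) and Slc27a3 (0.557). Dhcr7, the last enzyme of cholesterol synthesis, had 305, 115, 113 and 51 counts.

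Nearest to Pdcd4 were Slc27a3 (0.468), Gcat (0.475), Hs3st6 (0.532), Gtf2i (0.590) and Dhcr7 (0.618). The main tag of Gtf2i closes in 11 A, while those of Slc27a3, Gcat, Hs3st6 and Dhcr7 close in at most 1. Among the 5 nearest to Nkain3 were Phgdh (0.462), Pdcd4 (0.771), Siat7F (0.901) and Tmem55b (0.944). Phgdh, the first enzyme of serine synthesis, had 148, 84, 132 and 20 counts, through a main tag that closes in no run of A. The main tags of Siat7F and Tmem55b close in 7 and 12 A. Dapl1 and Nkain3 were the farthest pair of the 4, at 1.81.

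The promoters of Dapl1, Pdcd4 and Hs3st6 are shown, to set the sequence at their starts side by side, as they stand in RefSeq for the GRCr8 build, from 250 bases before the start of the gene to 50 after it. These 3 of the 4 genes were found in the table. Capitals mark matches, on either strand, to the TATA box motif TATAAA, the CCAAT box, the GC box motif GGGCGG, the AP-1 motif TGANTCA or the E-box motif CACGTG.
Dapl1, chr3:64369484-64369783, plus strand: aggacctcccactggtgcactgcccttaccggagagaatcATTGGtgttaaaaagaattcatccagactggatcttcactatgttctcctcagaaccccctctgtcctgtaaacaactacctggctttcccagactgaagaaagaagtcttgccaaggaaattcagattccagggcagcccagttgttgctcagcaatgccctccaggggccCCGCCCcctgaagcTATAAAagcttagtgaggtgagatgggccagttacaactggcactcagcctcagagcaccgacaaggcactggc
Pdcd4, chr1:262926445-262926744, plus strand: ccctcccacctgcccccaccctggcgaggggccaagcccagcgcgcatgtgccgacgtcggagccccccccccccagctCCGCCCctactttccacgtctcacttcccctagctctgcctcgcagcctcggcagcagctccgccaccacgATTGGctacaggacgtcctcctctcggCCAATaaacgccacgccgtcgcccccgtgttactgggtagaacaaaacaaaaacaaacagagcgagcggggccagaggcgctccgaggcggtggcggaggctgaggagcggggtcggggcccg
Hs3st6, chr10:14286305-14286604, plus strand: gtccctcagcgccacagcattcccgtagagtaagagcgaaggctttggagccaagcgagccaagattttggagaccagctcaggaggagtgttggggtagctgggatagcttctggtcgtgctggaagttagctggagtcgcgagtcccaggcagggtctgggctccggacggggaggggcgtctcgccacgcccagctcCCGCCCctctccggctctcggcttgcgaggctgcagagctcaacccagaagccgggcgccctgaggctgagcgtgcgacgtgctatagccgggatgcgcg
Dapl1 held 1 TATA box, 1 CCAAT box and 1 GC box match, Hs3st6 held 1 GC box match, and Pdcd4 held 2 CCAAT box and 1 GC box match, with no match overlapping another. Of 33469 promoters of the same length, 14.2% held the TATA box motif, 37.5% the CCAAT box, 33.1% the GC box motif, 7.33% the AP-1 motif and 6.42% the E-box motif. None of the 3 windows held the letters of the last 2 motifs. The share of G and C was 52.3% for Dapl1, 65.3% for Hs3st6 and 69.0% for Pdcd4, where the median of all promoters was 51.7%.

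The nearest protein-coding genes with at least 50 counts on either side of each gene, by the gene order of GRCr8, were looked up after the values were seen. Of these 8 neighbours 1 was lower on day 9 against day 0, 2 were higher and 5 were neither. Over all genes 10.4% were lower and 10.7% higher, and 8 genes are too few to set against those shares. Fahd1, near Hs3st6, had 51, 28, 34 and 23 counts, with a day 9 to day 0 ratio of 0.479 (0.276 to 0.789). Ggh, a folate hydrolase gene next to Nkain3, had 89, 178, 202 and 399 counts, with a ratio of 4.69 (3.73 to 5.99).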

How the data were processed

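RNA of 4 footpad skin samples was read as 21-base tags, 1 library for each of 4 collection days. Per the file headers and values, the authors deposited whole-number counts per gene, each the sum of the copies of its tags. The deposited column headed TPM held CPM, scaled by the authors to all tags seen at least 2 times and not by length. Per the labels the annotation came from NCBI, and per the submitters' processing notes the build was Rnor_6.0. How tags were matched to transcripts is not given in the sources used here. Other values, the single sequenced tags, were taken from the deposited tag lists.

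Counts were joined by gene identifier and scaled by gene totals times TMM factors (edgeR 4.0.16, 0.978 to 1.02). Ratios used a prior count of 0.5 and exact Clopper-Pearson 95% intervals in scipy 1.17.1. Where a library had 0 counts, a fold given as "at least" used a floor of 3 counts, while ratios, calls and list medians kept the prior count. With 1 library a day no test across animals was possible, so genes were called by size. Sequences and gene order came from RefSeq tables of GRCr8, in which 11247 of 11471 numeric gene identifiers were found.

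The 4 genes and the 18 related lists were chosen with earlier results of these data known. Of each list, up to 4 members furthest from a ratio of 1 on day 9 against day 0 with at least 50 counts were eligible to be named. For each gene the 5 nearest in course were eligible too. A few genes that these rules select are not reported here. The named melanocyte markers, Nkain4, Hbb, Actb, Eif2s3y, the neighbours and the tags sharing a stem were chosen after their values were seen. Alternatives covered scaling (DESeq2 1.42.0 size factors among them), prior count, count floor, interval, fold and the main tag alone.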

Additional observations from a re-analysis of the deposited data

How the results depend on the processing

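Across 8 other settings and 1 chosen after seeing the data (unassigned tags of the same stem, for Pdcd4 and Nkain3), 201 of 204 ratios of the 4 genes stayed within the counting interval of the value reported. The other 3 were those of Pdcd4 against day 0 with the unassigned tags added: a ratio of 0.170 in place of 0.147 on day 9, 0.635 in place of 0.555 on day 6 and 0.367 in place of 0.335 on day 3, where the counts added are the difference. On day 9 against day 0 the alternatives gave 9.17 to 9.65-fold lower for Dapl1, 5.89 to 7.01 for Pdcd4, 6.71 to 8.24 for Hs3st6 and 5.25 to 7.11 for Nkain3. Dapl1 on day 9 against day 6 lay on either side of the 2-fold size, at 1.95 to 2.05-fold, as did Hs3st6 on day 9 against day 3, at 1.74 to 2.07-fold.

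Counts of called genes moved with the count floor and the fold, which by construction change which genes can be called. On day 9 against day 0 there were 558 lower and 571 higher genes. With at least 10 counts these were 1132 and 1183, with at least 200 counts 152 and 201, with no filter 1284 and 1348, and at 4-fold 77 and 113. Lower genes on day 6 and day 3 against day 0 were 694 and 421, and with no filter 1692 and 1033, with at least 10 counts 1480 and 900, with at least 200 counts 193 and 125, and at 4-fold 192 and 39. Lower genes on day 9 against day 6, day 9 against day 3 and day 6 against day 3 were 224, 237 and 344, with no filter 724, 816 and 1133, with at least 10 counts 600, 676 and 961, with at least 200 counts 53, 66 and 101, and at 4-fold 19, 26 and 110. Higher genes on day 6 against day 3 were 147, and 519, 427, 40 and 20 under the same settings, 96 with scaling by all tags and 84 with the authors' value plus 1. For the last 2 the cause was not tested. Of list medians, 96 of 107 moved by at most 0.1 on the log2 scale. Without a filter the median was 0.07 in place of -0.17 for heparan sulfate sulfotransferases and sulfatases, -0.82 in place of -0.02 for sodium pump genes, 0.50 in place of 0.29 for AP-1 and -2.25 in place of -0.75 for melanocyte markers. That -0.75 is the value of Sox10 alone, the 1 melanocyte marker with a mean of at least 10 counts. With a mean of at least 50 counts the same sulfotransferases had -0.33, chain synthesis -0.20 in place of -0.44, sodium pump genes 0.09, Schwann markers 0.09 in place of 0.24, muscle 1.04 in place of 1.18, fibroblasts 1.72 in place of 1.33 and macrophages 0.49 in place of 0.60.

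No paired analysis was possible because each day has 1 library. Hs3st6 and Nkain3 had 20 and 18 counts on day 9, so their intervals are the widest of the 4 genes.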
